A study of Mus musculus with 9 samples.

Results

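Among 1966 mature miRNAs counted in mouse quadriceps, the 5 described here were the members of the miR-7 family and of miR-149 with a count in at least 1 library: mmu-miR-7a-5p, mmu-miR-7a-1-3p, mmu-miR-7b-5p, mmu-miR-149-5p and mmu-miR-149-3p, written below without the prefix for mouse. They were chosen by name, because miR-7a-5p and miR-149-5p were already known from these libraries to be lower in both knockouts. Their changes against WT, calls and adjusted p values included, are therefore given as a description. Only the direct contrast of the knockouts served as a test. The choice also bears on that contrast, because miRNAs picked as lower in both knockouts tend to differ little between them. Small RNA was sequenced from the quadriceps of 9 mice, with 1 library per mouse and 3 mice per group, to ask which miRNAs change when an MBNL protein is lost. The MBNL proteins bind RNA and control alternative splicing. WT mice (C57BL/6J) were Mbnl1+/+ Mbnl2+/+, and Mbnl1KO mice, on the same background, were Mbnl1{delta}E3/{delta}E3 and kept Mbnl2+/+. Mbnl2KO mice were labelled B6.C-Tg(CMV-cre)1Cgn/J, a strain in which the CMV promoter drives Cre broadly, and were Mbnl1+/+. Their Mbnl2 alleles were labelled {delta}E2/{delta}E2 in replicate 1, {delta}E2/{delta}E3 in replicate 2 and {delta}E2/{delta}E4 in replicate 3, where the paper names the first combination alone. All mice were labelled as 90 days old. The strain label thus differs between Mbnl2KO and WT, while the paper describes the WT mice as littermates. By the labels alone, background and genotype cannot be told apart there. Mbnl mRNAs are not part of small RNA counts, so the deletions could not be checked.

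A miRNA is cut from a hairpin, and the strand taken up by an Argonaute protein pairs with target mRNAs mainly through its seed, bases 2 to 8. miR-7 is an ancient miRNA best known from brain and from endocrine cells of the pancreas. The circular RNA Cdr1as holds many binding sites for it, and the long RNA Cyrano pairs with it almost fully and directs its degradation. miR-149 lies in an intron of Gpc1, the gene of the heparan sulfate proteoglycan glypican-1. In bulk muscle, a lower count can come from fewer cells of a type or from less of the miRNA per cell, and these cannot be told apart.

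The mature sequences are shown to make clear which members share a seed, and which of them the counting could separate. They are RefSeq sequences (GRCm38.p6), written 5′ to 3′ with the seed in capitals.
miR-7a-5p: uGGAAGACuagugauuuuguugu
miR-7b-5p: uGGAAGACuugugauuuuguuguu
miR-7a-1-3p: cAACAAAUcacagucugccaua
miR-7a-2-3p: cAACAAGUcccagucugccaca
miR-7b-3p: cAACAAGUcacagccagccuca
miR-149-5p: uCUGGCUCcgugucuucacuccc
miR-149-3p: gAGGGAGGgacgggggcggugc

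miR-7a-5p and miR-7b-5p had the same seed, GGAAGAC, and no other listed miRNA with a sequence had it. They were identical at 22 of 23 compared positions and differed by A10U, counted from the 5′ end with the base of miR-7a-5p first. The other arms were less alike. miR-7a-1-3p and miR-7a-2-3p differed by A7G, A10C and U21C, so that the first of these changes fell within the seed. The seed of miR-149-5p, CUGGCUC, was found in no other listed miRNA. That of miR-149-3p, AGGGAGG, was also found in miR-1943-5p, which had 22 to 72 counts per library, and in miR-6967-5p and miR-7016-5p, which had 0 or 1. miR-149-3p was rich in G, at 68.2% of its bases, and 60.9% of the bases of miR-149-5p were G or C against 34.8% for miR-7a-5p. A sequence was found for 1675 of the 1966 listed miRNAs.

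On GRCm39 (GENCODE annotation), the Mir7-1 hairpin lies at chr13:58540593-58540700 on the minus strand, inside intron 14 of 14 of the protein-coding gene Hnrnpk. Mir7-2 lies at chr7:78538025-78538121 on the plus strand, within an exon of at least 1 transcript of the lncRNA Gm57212 and an intron of its main transcript. Mir7b lies at chr17:56549988-56550098 on the plus strand, in no annotated host gene. Mir149 lies at chr1:92778100-92778165 on the plus strand, inside intron 1 of 8 of Gpc1. No other annotated miRNA hairpin lay within 50 kb of any of them. Mir7-1 and Mir7-2 both hold the sequence of miR-7a-5p, so a count of miR-7a-5p cannot be divided between these loci. The 3p arm does separate them, and it had counts only for Mir7-1: miR-7a-2-3p and miR-7b-3p were listed at 0 in all 9 libraries. A 0 in these files may not be a measured absence, since miR-486a-5p and miR-126a-3p, abundant in muscle and vessel, were also listed at 0 throughout.

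The usual core motif bound by MBNL proteins is a GC between pyrimidines, read here as UGCU or UGCC and as CGCU or CGCC, and it was searched on the given strand of each sequence. UGCC started at base 16 of miR-7a-1-3p and of miR-7a-2-3p, and 23.2% of 753 mature miRNAs of that length held at least 1 match. None was found in miR-7a-5p or miR-149-5p, where the share at their length was 33.1% of 278. The Mir7-1, Mir7b and Mir149 hairpins held 1 match each and Mir7-2 held 2, none in a loop. A match was common in hairpins of like length, at 80.2% for Mir7-1 and 56.9% for Mir149. These matches describe the sequences and no binding was measured.

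The libraries held between 4761271 and 6277018 counts, of which miR-1a-3p, the main muscle miRNA, took 61.4% to 73.7%. Of 10 nerve markers, 4 were listed at 0, which may not be a measured absence. miR-128-3p carried nearly all of the summed level of the nerve markers, 466.5 to 577 CPM (normalized counts scaled to a library of 1000000) in WT. That sum was 585 to 647 in Mbnl1KO and 421 to 549 in Mbnl2KO. The defining nerve miRNAs miR-9-5p and miR-124-3p had 0 and at most 3 counts. Of 6 tested blood and immune markers (8 listed), 3 were called lower and 1 higher in Mbnl1KO than in WT (14.2% and 18.9% of all tested miRNAs) and none in Mbnl2KO, and their summed level was 469 to 590 CPM in Mbnl1KO, 515 to 542 in Mbnl2KO and 502 to 546 in the WT libraries. Of 6 tested vessel wall and fibroblast markers (7 listed), miR-199a-3p alone was called in Mbnl1KO, lower, and miR-143-3p alone in Mbnl2KO, higher (3.41% of all tested miRNAs), and the sum was 5918 to 8660 CPM in Mbnl1KO, 7739 to 8938 in Mbnl2KO and 6474 to 7234 in the WT libraries. The part of these cells in the results below was not tested. Of 5 tested muscle fibre markers (7 listed), 2 were called higher in Mbnl1KO and 1 in Mbnl2KO, and none lower. miR-206-3p, which marks regenerating fibres, rose by 1.93 in Mbnl1KO and 0.89 in Mbnl2KO on the log2 scale, and miR-133b-3p, from the same cluster, rose by 0.71 in Mbnl1KO and was at -0.15 in Mbnl2KO. The others were not called. miR-1a-3p was at -0.40 in Mbnl1KO, just above the cut (adjusted p 0.0501 by edgeR), and at 0.02 in Mbnl2KO. The paper calls miR-1 lower in Mbnl1KO. miR-133a-3p was at 0.03 and -0.16, and miR-499-5p at 0.87 and -0.58, in Mbnl1KO and Mbnl2KO.

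miR-7a-5p was the abundant member of its family and ranked between 83 and 115 in the 9 libraries. Its count was 597, 708 and 470 in the WT libraries, 587, 561 and 406 in Mbnl1KO, and 429, 404 and 378 in Mbnl2KO. After scaling, the level was 112.5, 120.1 and 100.9 CPM in WT, a mean of 111 ± 9.66 (SD, n = 3). It was 76.1, 101.2 and 59.3 CPM in Mbnl1KO, a mean of 78.9 ± 21.1 (SD, n = 3). Replicate 2 stood just above the lowest WT library, so these groups overlapped by that library alone. They overlapped with 3 of the 4 scalings tried (not with DESeq2's size factors), and with library totals replicate 1 also lay above the lowest WT library. The level was 74.5, 69.0 and 83.5 CPM in Mbnl2KO, a mean of 75.7 ± 7.32 (SD, n = 3), and every Mbnl2KO library lay below every WT library, as for 11.6% of all tested miRNAs. The 3 Mbnl1KO libraries were far more spread out than the other groups, with a coefficient of variation of 26.7% against 8.69% in WT and 9.67% in Mbnl2KO. Counting error alone would give 4.45% in Mbnl1KO.

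miR-149-5p, the guide arm of its hairpin, was the most abundant member and ranked between 35 and 49. Its count was 4189, 6148 and 3640 in WT, 4929, 2776 and 5205 in Mbnl1KO, and 2817, 3471 and 2968 in Mbnl2KO. The level was 789.6, 1043 and 782 CPM in WT, a mean of 871 ± 149 (SD, n = 3). In WT, replicate 2 stood well above the others. It was 639, 501 and 760.3 CPM in Mbnl1KO, a mean of 633 ± 130.0 (SD, n = 3), and 489, 593 and 656 CPM in Mbnl2KO, a mean of 579 ± 84.3 (SD, n = 3). No knockout library reached the lowest WT library on this scale, as for 22.7% of all tested miRNAs in Mbnl1KO. For Mbnl1KO that separation was narrow and held with this scaling alone. The highest Mbnl1KO and the lowest WT library were at 787 and 741 CPM with TMM before the filter, at 769.0 and 768.3 with DESeq2's size factors, and at 836 and 681 with library totals. For Mbnl2KO the groups stayed apart with each of the 4 scalings tried, as they did for miR-7a-5p.

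**Figure D1:**
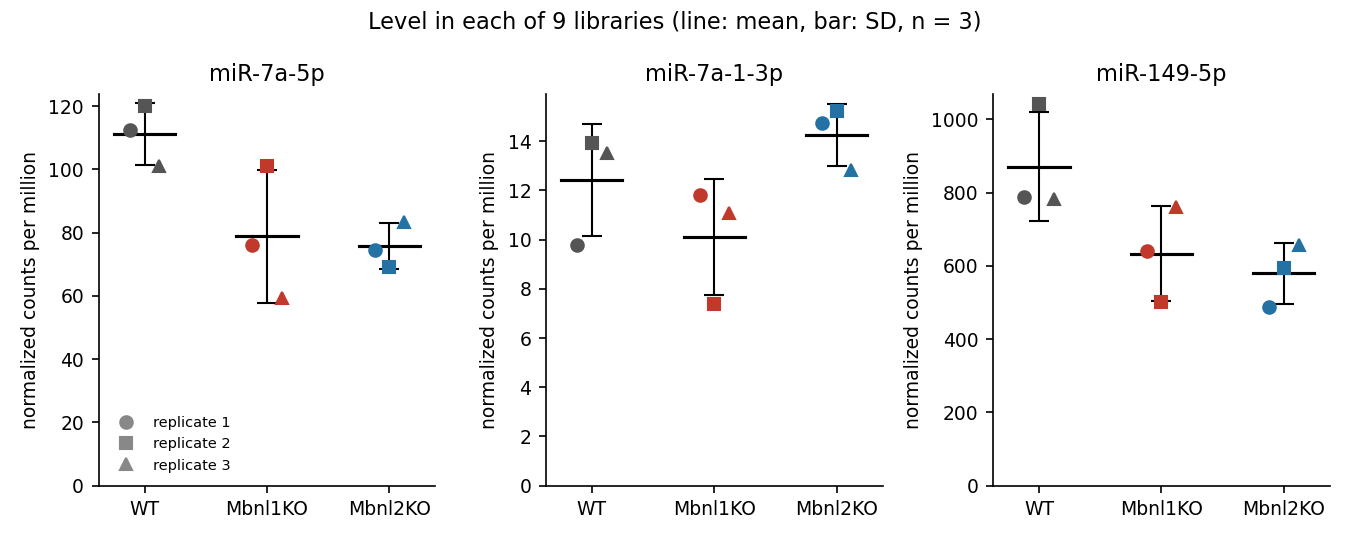
CPM (vertical axis, starting at 0) of miR-7a-5p, miR-7a-1-3p and miR-149-5p in each of the 9 libraries, by group, with a point per library, a line at the mean and a bar for the SD (n = 3). The Mbnl2KO libraries lie below all WT libraries for miR-7a-5p and miR-149-5p, and replicate 2 of Mbnl1KO is the highest of its group for miR-7a-5p and the lowest for the other miRNAs.

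Fitted with edgeR's quasi-likelihood model, miR-7a-5p was lower in Mbnl1KO than in WT by a log2 fold change of -0.50 (SE 0.17), a level that decreased by 29.3%. In Mbnl2KO the log2 fold change against WT was -0.53 (SE 0.15), and the level decreased by 30.9%. For miR-149-5p the log2 fold change was -0.46 (SE 0.15) in Mbnl1KO, where the level decreased by 27.4%. It was -0.57 (SE 0.14) in Mbnl2KO, where the level decreased by 32.7%. Both miRNAs were called lower in both comparisons at an adjusted p under 0.05, as their choice implies. The paper's own list of miRNAs changed in both knockouts holds neither of them. Of all tested miRNAs, 14.2% of 317 were called lower in Mbnl1KO and 2.39% of 293 in Mbnl2KO, and in either direction 33.1% and 5.8% were called. Since these contrasts chose the members, nothing is read from that. Many miRNAs changed by as much in Mbnl1KO: miR-7a-5p had the 57th and miR-149-5p the 65th lowest log2 fold change of 317. In Mbnl2KO they had the 21st and the 18th lowest of 293. The comparisons share the WT libraries, so a high or low WT library moves the changes in both knockouts together.

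The direct contrast of Mbnl1KO with Mbnl2KO holds no WT library. The log2 difference of Mbnl1KO over Mbnl2KO was 0.06 (SE 0.19) for miR-7a-5p, with a 95% interval from -0.34 to 0.45 and an adjusted p of 0.819 over all tested miRNAs. For miR-149-5p it was 0.13 (SE 0.16), with an interval from -0.21 to 0.47 and an adjusted p of 0.541. Neither difference was larger than the spread between libraries, while 83 of 309 tested miRNAs (26.9%) were called in this contrast. With library totals as the scaling the differences were 0.35 (adjusted p 0.313) and 0.43 (adjusted p 0.111), where the median of all tested miRNAs was 0.35. The intervals are wider than the decreases against WT, so they do not show equal levels in the knockouts.

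**Figure D2:**
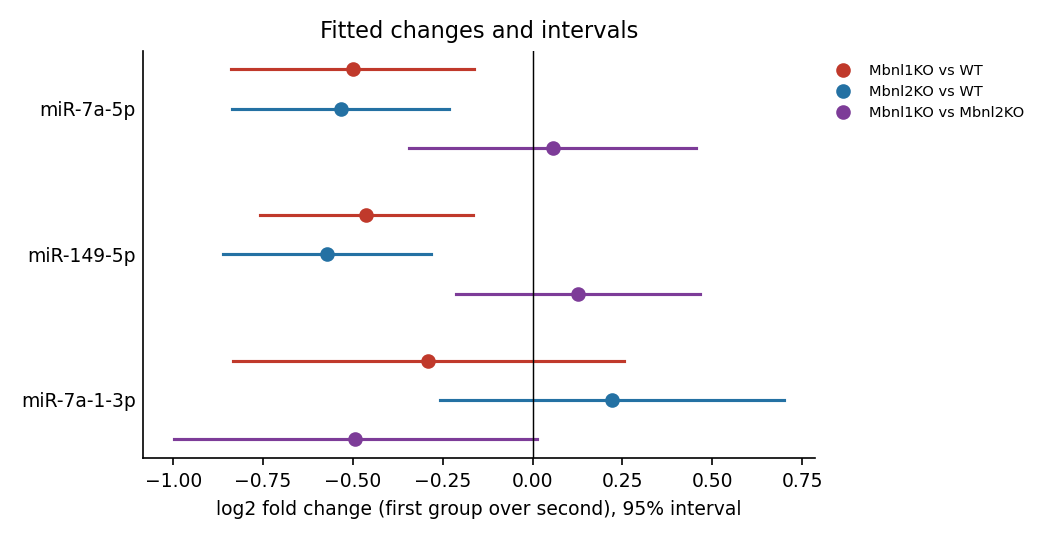
Fitted log2 fold changes (horizontal axis) with 95% intervals for miR-7a-5p, miR-149-5p and miR-7a-1-3p in the 3 contrasts. For miR-7a-5p and miR-149-5p both intervals against WT lie below 0 and the interval between the knockouts spans 0. For miR-7a-1-3p all intervals span 0.

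The 2 miRNAs did not share a pattern among the Mbnl1KO mice. Replicate 2 had the highest miR-7a-5p level of its group (101.2 CPM) and the lowest miR-149-5p level (501 CPM), and replicate 3 had the lowest miR-7a-5p level (59.3 CPM) and the highest miR-149-5p level (760.3 CPM). Over the 9 libraries, likeness was measured as the root mean square difference of centred log2 CPM, and miR-149-5p was only the 65th nearest of 309 miRNAs to miR-7a-5p, at 0.35. The nearest to miR-7a-5p were miR-101b-3p (0.19), miR-194-5p (0.19) and miR-22-5p (0.20). miR-101b-3p was at 484 ± 39.9 CPM in WT, 346 ± 29.9 in Mbnl1KO and 308 ± 28.2 in Mbnl2KO (SD, n = 3), and was called lower in both. miR-194-5p and miR-22-5p were called lower in Mbnl1KO (log2 fold change -0.51 and -0.39) and not in Mbnl2KO (-0.20 and -0.21). The nearest to miR-149-5p were miR-1981-3p (0.14), miR-615-3p (0.17) and miR-100-5p (0.19). miR-1981-3p was called in neither knockout (-0.66 in Mbnl1KO and -0.71 in Mbnl2KO), and miR-615-3p was called lower in Mbnl2KO (-0.83) and not in Mbnl1KO (-0.37). miR-100-5p, called lower in both knockouts, had 1244 ± 57.9 CPM in WT, 760 ± 130 in Mbnl1KO and 866 ± 173 in Mbnl2KO (SD, n = 3).

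miR-7a-1-3p, the other arm of the Mir7-1 hairpin, was called in neither knockout. Its count was 52, 82 and 63 in WT, 91, 41 and 76 in Mbnl1KO, and 85, 89 and 58 in Mbnl2KO. The level was 9.80, 13.9 and 13.5 CPM in WT, 11.8, 7.39 and 11.1 in Mbnl1KO, and 14.8, 15.2 and 12.8 in Mbnl2KO. Both knockouts overlapped WT, whereas the knockouts did not overlap each other, except with library totals as the scaling. The log2 fold change against WT was -0.29 (SE 0.27) in Mbnl1KO and 0.22 (SE 0.23) in Mbnl2KO, and the value lay on the same side as that of miR-7a-5p in Mbnl1KO and on the opposite side in Mbnl2KO. Without single libraries these values ran from -0.44 to -0.094 in Mbnl1KO (-0.094 without Mbnl1KO replicate 2) and from 0.042 to 0.31 in Mbnl2KO (0.042 without WT replicate 1). Between the knockouts the log2 difference was -0.49 (SE 0.24), with a 95% interval from -0.999 to 0.013 and an adjusted p of 0.137, while groups did not overlap for 47.9% of all tested miRNAs. Counts of 41 to 91 carry a counting error of 10.5% to 15.6%.

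The ratio of the arms within a library does not depend on how libraries are scaled, apart from counting error. miR-7a-5p had 11.5, 8.63 and 7.46 reads per miR-7a-1-3p read in the WT libraries, a mean of 9.19 ± 2.07 (SD, n = 3). The ratio was 6.45, 13.7 and 5.34 in Mbnl1KO, a mean of 8.49 ± 4.53 (SD, n = 3), and 5.05, 4.54 and 6.52 in Mbnl2KO, a mean of 5.37 ± 1.03 (SD, n = 3). All Mbnl2KO libraries lay below all WT libraries, as for 12 of 70 hairpins with both arms tested (17.1%, with 0.5 reads added to each arm), and replicate 2 of Mbnl1KO was the highest of all 9 libraries while the other Mbnl1KO libraries lay below WT. Reads of miR-7a-5p can also come from Mir7-2, so the ratio compares all miR-7a-5p with the 3p arm of Mir7-1 alone. Between the knockouts the log2 ratio differed by 0.55, with an exact two-sided permutation p of 0.3 (3 against 3 libraries, where 0.1 is the smallest possible). The log2 fold change of miR-7a-5p minus that of miR-7a-1-3p was -0.76 in Mbnl2KO, and 8 of 70 hairpins with both arms tested, this one included, had a difference at least as large in either direction. Since miR-7a-5p was chosen for being lower, nothing is read from its place among the hairpins, nor from the separation of its ratios from WT. It was -0.21 in Mbnl1KO, where 50 of 80 hairpins had a difference at least as large.

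**Figure D3:**
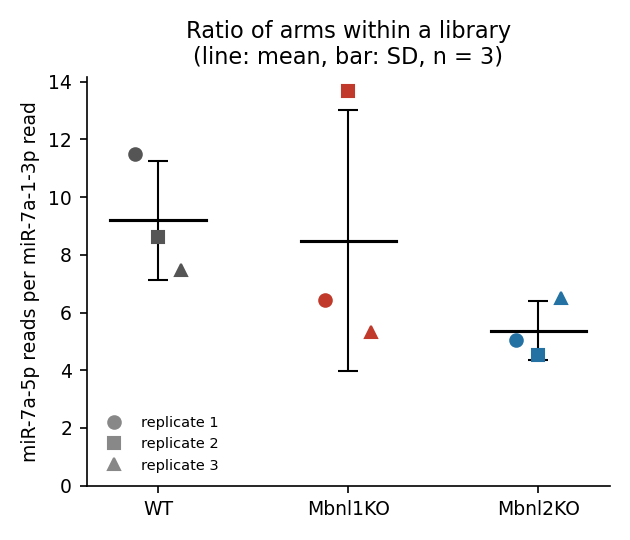
Reads of miR-7a-5p per read of miR-7a-1-3p (vertical axis, starting at 0) in each library, by group, with a point per library, a line at the mean and a bar for the SD (n = 3). Mbnl2KO libraries lie between 4.54 and 6.52, below the WT libraries at 7.46 to 11.5, and replicate 2 of Mbnl1KO stands apart at 13.7.

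miR-7b-5p and miR-149-3p were too rare to be tested, and got no fold change. miR-7b-5p had 0, 3 and 2 counts in WT, 4, 4 and 1 in Mbnl1KO, and 0, 1 and 6 in Mbnl2KO. These 21 counts were 0.460% of the reads of the 2 miRNAs with the GGAAGAC seed (95% Wilson interval 0.301% to 0.703%, counting error only), so the seed of the family was carried almost entirely by miR-7a-5p. miR-149-3p had 2, 2 and 1 counts in WT, 4, 0 and 0 in Mbnl1KO, and 1, 1 and 0 in Mbnl2KO. It made up 0.0304% of the reads of its hairpin (interval 0.0170% to 0.0545%), so miR-149 in this muscle was read from its 5p arm. A difference between groups in either miRNA was not detectable at this depth.

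miRNAs for which degradation directed by a target has been described were looked at as a group of 6, which includes miR-7a-5p and miR-7b-5p, and 5 of them were tested. Besides miR-7a-5p, only miR-322-5p was called in Mbnl1KO, where it rose by 0.69 (SE 0.16) on the log2 scale, and only miR-335-3p in Mbnl2KO, where it rose by 1.1 (SE 0.26). These are 2 of 5 in each comparison, where 33.1% and 5.8% of all tested miRNAs were called, and miR-7a-5p is in the count by its choice. Between the knockouts, miR-322-5p was higher in Mbnl1KO (log2 difference 0.52, adjusted p 0.0151 by edgeR) and miR-335-3p was lower (-0.92, adjusted p 0.0189), where 26.9% of all tested miRNAs were called. The median log2 fold change of the 5, miR-7a-5p included, was 0.31 in Mbnl1KO and 0.11 in Mbnl2KO, against -0.01 and 0.02 over all tested miRNAs. The arms of miR-671, a miRNA that cuts Cdr1as, were not called. miR-671-5p was at 10.8 ± 2.18 CPM in WT, 11.5 ± 4.57 in Mbnl1KO and 10.4 ± 2.19 in Mbnl2KO (SD, n = 3). miR-671-3p was at 2.11 ± 0.415 CPM in WT, 2.27 ± 0.328 in Mbnl1KO and 4.26 ± 0.608 in Mbnl2KO (SD, n = 3), with every Mbnl2KO library above every WT library. Counting both directions, groups did not overlap for 23.2% of tested miRNAs, and 11.6% of tested miRNAs were those with Mbnl2KO lower.

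miR-149-5p was also counted among all miRNAs whose hairpins lie in an intron of a protein-coding gene on its strand. Of 87 such miRNAs tested in Mbnl1KO, 13, miR-149-5p included, were called lower (14.9%) and 5 higher (5.75%), with a median log2 fold change of -0.17. The 193 tested miRNAs at other positions included those with hairpins both inside and outside such introns, as miR-7a-5p has. Of these 193, 27, miR-7a-5p included, were called lower (14.0%) and 49 higher (25.4%), with a median of 0.07. Over all tested miRNAs, 14.2% were called lower and 18.9% higher. In Mbnl2KO, 3 of 84 intronic miRNAs, again with miR-149-5p, were called lower and 5 higher, against 2.39% and 3.41% of all tested miRNAs. The mRNAs of Gpc1 and Hnrnpk were not measured in these libraries.

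Both decreases in Mbnl1KO depended on how the libraries were scaled. With library totals in place of TMM, the log2 fold change in Mbnl1KO was -0.20 for miR-7a-5p and -0.16 for miR-149-5p, neither was called, and the median of all fitted miRNAs shifted to 0.28. Set against that median, the changes were similar to those with TMM. In Mbnl2KO the same scaling gave -0.55 and -0.59, with adjusted p values of 0.0998 and 0.0587. Without single libraries, the log2 fold change of miR-7a-5p stayed between -0.69 and -0.33 in Mbnl1KO and between -0.63 and -0.43 in Mbnl2KO, but it was called in 3 and 2 of 6 such fits. The call was lost without WT replicate 1 or WT replicate 2 in either comparison, without Mbnl1KO replicate 3, and without Mbnl2KO replicate 1 or replicate 2. For miR-149-5p the range was -0.62 to -0.29 in Mbnl1KO and -0.69 to -0.42 in Mbnl2KO, with 4 of 6 fits called in each. There the call was lost without WT replicate 2 in either comparison, without Mbnl1KO replicate 2 and without Mbnl2KO replicate 1. Without WT replicate 2, which has the highest level, the log2 fold change of miR-149-5p was -0.32 in Mbnl1KO and -0.42 in Mbnl2KO.

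**Figure D4:**
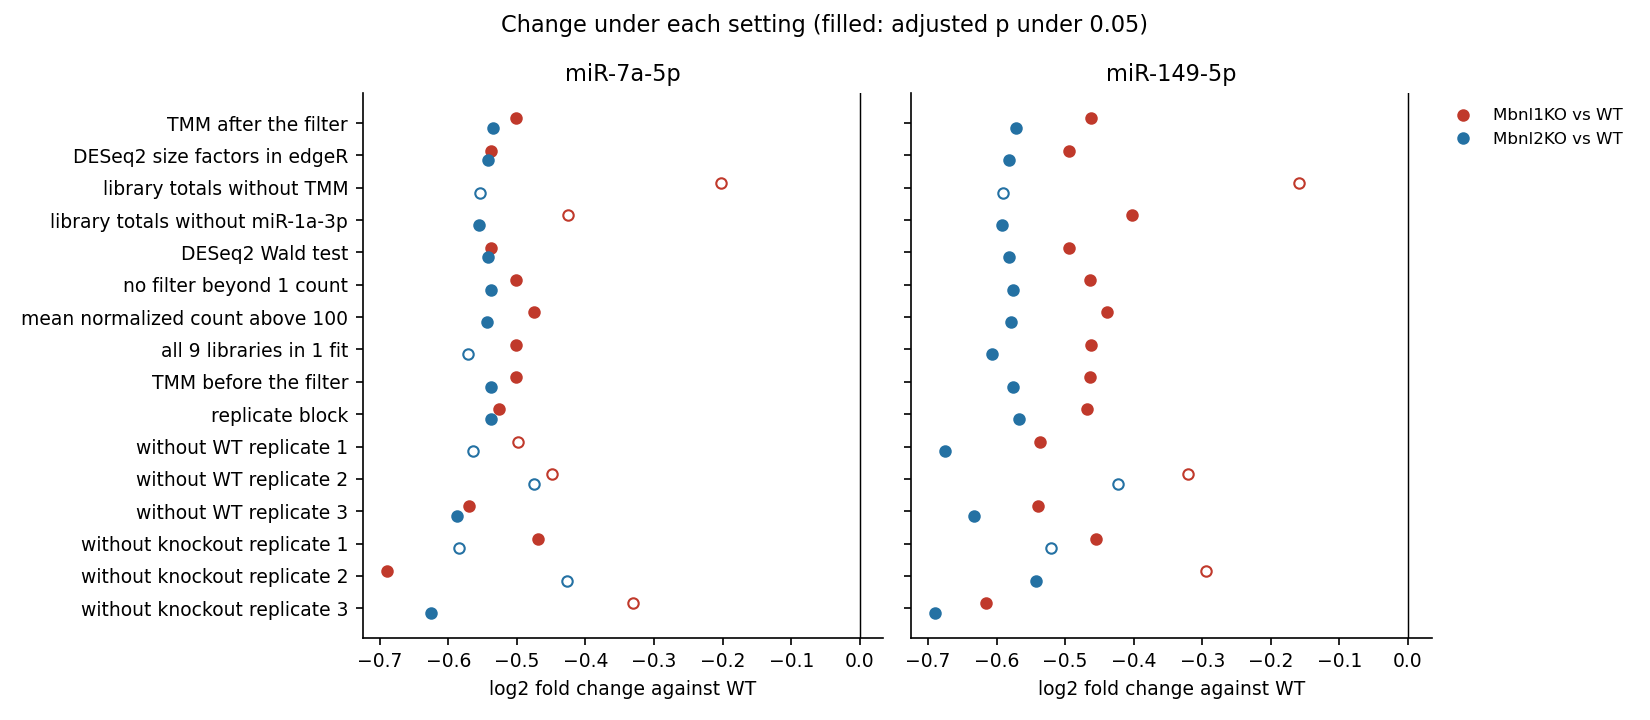
Log2 fold changes against WT (horizontal axis) of miR-7a-5p and miR-149-5p under each setting and without each library, with red points for Mbnl1KO and blue points for Mbnl2KO, filled where the adjusted p was under 0.05. All values lie below 0, between -0.69 and -0.16, and library totals move the Mbnl1KO values nearest to 0.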

How the data were processed

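The authors deposited raw counts, reads per mature miRNA, for 9 small RNA libraries of mouse quadriceps. Per the study's methods, adapters were clipped and reads aligned without mismatch to miRBase hairpins, and reads within 2 nt of a mature miRNA were summed. Whether this made the deposited counts is not given in the sources used here. Groups came from the labels, and p-values weigh a difference between groups against the spread between mice within them. In Mbnl2KO that spread also holds the different allele labels of the replicates.

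Counts of each pair of groups were fitted with edgeR 4.0.16 (robust quasi-likelihood test, TMM, Benjamini-Hochberg, R 4.3.3) for miRNAs with a mean above 10 after DESeq2 1.42.0 size factors. TMM was computed after this filter. Both orders were run, and this one was kept because its counts of calls matched earlier processing of these data, so the other order was added after seeing the data. Levels are TMM-normalized CPM over 9 libraries. Entries at 0 in all libraries (1057) were left out. Likeness used a pseudocount of 0.5 and named the 3 nearest miRNAs. The named miRNAs were the 5 members, the other arms of their hairpins, miRNAs sharing a seed, neighbours within 50 kb, and listed miRNAs. The members and lists were chosen with earlier results of these data known. The fits were tested on simulated data. Alternatives were other scalings, DESeq2, other filters, thresholds of 0.01, a joint fit, a replicate block and each library left out.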

Additional observations from a re-analysis of the deposited data

Results flagged for a closer look

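miR-7a-1-3p lay below the WT mean of 12.4 CPM in all 3 Mbnl1KO libraries and above it in all 3 Mbnl2KO libraries. The contrast of the knockouts tested this difference, and it did not pass (edgeR, adjusted p = 0.137, from 0.0907 to 0.702 over the alternatives). With library totals the Mbnl1KO value against WT changed sign.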

How the results depend on the processing

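The number of miRNAs called was 105 in Mbnl1KO against WT, 17 in Mbnl2KO against WT and 83 between the knockouts. With a mean count above 100 it was 68 in Mbnl1KO and 9 in Mbnl2KO. In Mbnl2KO it was 7 with library totals, 11 with all 9 libraries in 1 fit and 6 at an adjusted p under 0.01, where 45 were called between the knockouts. Without single libraries it was 6 to 25 in Mbnl2KO (6 without WT replicate 2), 75 to 115 in Mbnl1KO and 55 to 93 between the knockouts (55 without Mbnl1KO replicate 3). With library totals, 89.2% of the Mbnl1KO calls were higher, against 57.1% with TMM.

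For miR-7a-5p, the log2 fold change that was no longer called was -0.20 with library totals and -0.43 with totals without miR-1a-3p in Mbnl1KO, and -0.55 with library totals and -0.57 with all 9 libraries in 1 fit in Mbnl2KO. Without single libraries it ran from -0.69 to -0.33 in Mbnl1KO, from -0.63 to -0.43 in Mbnl2KO and from -0.19 to 0.23 between the knockouts. For miR-149-5p it was -0.16 in Mbnl1KO and -0.59 in Mbnl2KO with library totals, neither called. Without single libraries it ran from -0.62 to -0.29, from -0.69 to -0.42 and, between the knockouts, from -0.018 to 0.24. miR-7a-1-3p in Mbnl1KO changed to 0.019 with library totals. The cause was not tested. TMM before the filter changed none of these calls (log2 fold change of miR-7a-5p -0.50 and -0.54). At an adjusted p under 0.01 none of the 4 calls of miR-7a-5p (0.0163 and 0.0262) and miR-149-5p (0.0108 and 0.0153) would be made. For these 3 miRNAs the other scalings, filters and fits that were run kept direction and call (miR-7a-1-3p did not pass the filter of a mean above 100), and the arm ratios moved by less than 1 SD in each group.

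Replicate numbers showed no clear pairing of the mice, though 3 libraries per group cannot exclude it. Same-numbered libraries correlated from -0.16 to 0.11 in their deviations from the group means, and differently numbered ones from -0.15 to 0.15. With the replicate number as a block, 92, 21 and 80 miRNAs were called, and miR-7a-5p was at -0.53 and -0.54 and miR-149-5p at -0.47 and -0.57 against WT, all called.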
